A study of Homo sapiens with 2 samples.

Results

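The Notch pathway genes examined here were the 10 genes whose symbols matched a set of receptors (NOTCH1, NOTCH2, NOTCH3), ligands (JAG1, JAG2, DLL3), the fringe enzyme LFNG and target genes (HES1, HES4, HEY1), out of 20985 genes in the table. All 10 were found, and all 10 reached a level of 1 in at least 1 library. They were followed in a gefitinib-resistant lung adenocarcinoma line, HCC827 ZDR3, and in its parent, HCC827, an established line whose growth depends on a mutated, active EGFR. The resistant cells were obtained by culture in gefitinib, an inhibitor of the EGFR kinase, starting at 10 nM for 1 month and raised 3-fold each month until 1 µM, after which 3 colonies were taken. The name ZDR3 is a single label, and the sources used here do not say whether it stands for 1 clone or whether the drug was present at harvest. Polyadenylated RNA of 1 culture per group was sequenced, so there is 1 resistant and 1 parental library, no spread between cultures can be given and no p-value is given for any difference.

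Notch receptors are single-pass membrane proteins that are activated by ligands of the Jagged and Delta-like families on a neighbouring cell. Ligand binding allows ADAM proteases and then the gamma-secretase complex to cut the receptor, and the freed intracellular part enters the nucleus, binds the DNA-binding protein RBPJ with a Mastermind-like co-activator and switches on genes of the HES and HEY repressor families. Fringe enzymes add sugars to the receptors and shift which ligands activate them. In airway and lung the pathway is known for deciding between secretory and ciliated or neuroendocrine fates.

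The promoter windows of 3 members are shown because HES1 and HES4 are direct targets of the RBPJ complex and NOTCH3 is the receptor whose level differed most. Each runs from 250 bases before to 50 bases after the gene start, is from RefSeq on GRCh38.p14 and is written in the direction of transcription, and capitals mark TGGGAA, the core of the RBPJ site, searched on both strands.
HES1 (chr3:194135898-194136197, plus strand): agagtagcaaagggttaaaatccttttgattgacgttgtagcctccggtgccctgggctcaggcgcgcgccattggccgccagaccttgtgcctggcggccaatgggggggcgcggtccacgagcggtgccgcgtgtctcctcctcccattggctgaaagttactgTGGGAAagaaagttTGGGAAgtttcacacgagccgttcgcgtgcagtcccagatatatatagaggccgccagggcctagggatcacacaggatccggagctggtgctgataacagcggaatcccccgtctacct
HES4 (chr1:1000048-1000347, minus strand): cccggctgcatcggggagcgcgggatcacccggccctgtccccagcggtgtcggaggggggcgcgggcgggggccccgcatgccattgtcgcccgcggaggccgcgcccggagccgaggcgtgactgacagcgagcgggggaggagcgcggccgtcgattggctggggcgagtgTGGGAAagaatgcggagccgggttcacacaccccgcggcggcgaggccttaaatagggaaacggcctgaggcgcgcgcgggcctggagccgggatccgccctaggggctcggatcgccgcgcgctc
NOTCH3 (chr19:15200946-15201245, minus strand): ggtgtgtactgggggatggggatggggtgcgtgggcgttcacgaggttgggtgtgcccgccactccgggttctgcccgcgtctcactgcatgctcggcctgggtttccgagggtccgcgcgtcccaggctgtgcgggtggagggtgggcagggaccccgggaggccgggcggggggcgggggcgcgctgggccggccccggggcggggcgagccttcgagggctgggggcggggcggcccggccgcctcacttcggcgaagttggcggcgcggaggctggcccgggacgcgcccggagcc
The HES1 window held 2 copies in the same direction, beginning at positions -84 and -70 from the start, and the HES4 window held 1 copy at -76. The NOTCH3 window held no copy of these letters. Among all 35116 windows of this length, 24.0% held at least 1 copy and 3.80% held 2 or more. Of the 9 windows of the 8 members with an entry, 4 held the RBPJ core, 5 held the N box CACNAG bound by HES repressors, and 0 held the E box CACGTG or the AP-1 site TGANTCA. These motifs occurred in 38.0%, 7.26% and 7.71% of all windows, in that order, and no matches of different motifs shared bases in the windows of members. DLL3 and HEY1 had no entry.

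The resistant library held 243549869 reads assigned to genes and the parental library 257192607. Levels are given in normalised reads, the deposited scale, on which 1 unit stands for 138 reads in the resistant and 143 reads in the parental library. The scale is not corrected for gene length, so levels of different genes are set against each other only after division by exon length. Log2 ratios put the resistant level plus 1 unit over the parental level plus 1 unit, and plain ratios carry exact 95% binomial (Clopper-Pearson) intervals, which cover counting error only. Of the lung epithelial markers 10 of 11 were expressed, with a summed level of 12818 in the resistant and 21347 in the parental library, and 8 lay below in the resistant library by 2-fold or more. The alveolar regulator NKX2-1 stood at 9.33 against 95.0 and E-cadherin (CDH1) at 146 against 1271. Basal cell markers summed to 8.92 in the resistant and 206 in the parental library, with 3 of 4 expressed. Most of both sums came from SOX2 alone, at 8.81 in the resistant and 187 in the parental library. TP63 was without reads in the resistant library and stood at 16.8 in the parental library. The keratin gene KRT14 stood at 0.0218 in the resistant and 1.16 in the parental library, and KRT5 was not expressed. Of the genes of other cell types, 0 of 4 endothelial, 1 of 5 fibroblast (COL1A1), 1 of 5 leukocyte (CD14) and 0 of 6 neuroendocrine markers were expressed. Their summed levels were 0.0945, 1.87, 0.574 and 0.167 in the resistant library, against 0.553, 9.51, 2.14 and 0.280 in the parental library. The genes of the series title were both present: JUN stood at 232 in the resistant and 49.1 in the parental library, and EGFR at 7182 and 6662.

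Across the pathway, 2 of 10 members (HEY1 and DLL3) were higher in the resistant library by 2-fold or more, as were 10.6% of the 13777 expressed genes. A further 2 (NOTCH3 and NOTCH2) were lower by 2-fold or more, as were 9.68% of the expressed genes, so 4 of 10 members passed the limit in either direction, against 20.3% of the expressed genes. The other 6 lay within 2-fold, and each had a higher level in the resistant library. The median log2 ratio of the members was 0.41, against -0.03 over all expressed genes. With 10 genes, counts of this size do not set the members apart from the background, and the sections below rest on the single values. Each of the 10 plain ratios had a counting interval that excluded 1, even the ratio of 1.16 for HES1. The intervals are narrow at this depth, and the share of all expressed genes with such an interval was not computed. This count therefore does not set the members apart either.

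**Figure D1:**
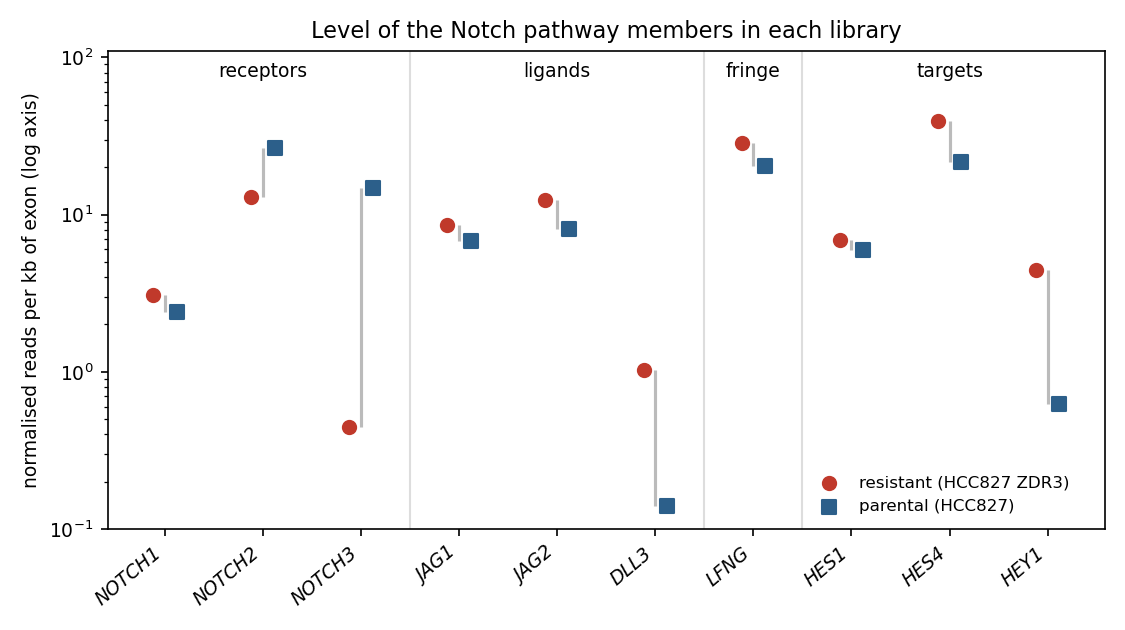
Level of each member in normalised reads per kilobase of exon (log axis), in the resistant library (red circles) and the parental library (blue squares), grouped by role. NOTCH3 stands at 0.444 in the resistant and 14.8 in the parental library, while HEY1 and DLL3 are the members with the largest differences in the other direction.

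Among the receptors, NOTCH3 and NOTCH2 were lower in the resistant library and NOTCH1 was slightly higher. NOTCH3 (ENSG00000074181, chromosome 19), a receptor best known for its role in vascular smooth muscle, had 530 reads and a level of 3.85 in the resistant library, against 18277 reads and a level of 127.9 in the parental library. That is 33.2-fold lower, with a counting interval of 30.5 to 36.3, and a log2 ratio of -4.73. It placed NOTCH3 at rank 74 of 13777 expressed genes counted from the lowest ratio, and 530 reads keep it well above the floor of 3 reads. Of its 40 nearest expressed genes 10 were lower by 2-fold or more, with log2 ratios from -2.27 to 2.20. In RNA from whole cultures a lower level in every cell and the loss of the transcript from part of the cells cannot be told apart. The summed levels of lung epithelial and basal markers given above were lower in the same library, the basal sum mostly through SOX2. The part of these markers in the level of NOTCH3 was not tested.

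NOTCH2 (ENSG00000134250, chromosome 1), the most abundant of the receptors in both libraries, had 28748 reads and a level of 208.9 in the resistant library, against 60795 reads and a level of 425.5 in the parental library. Its ratio of 0.491 (counting interval 0.484 to 0.498) and log2 ratio of -1.02 lay just past the 2-fold limit, and the log2 ratio was -0.998 when the libraries were scaled by total gene reads. Its 40 nearest expressed genes along the chromosome had a median log2 ratio of -0.77. With that median subtracted the log2 ratio of NOTCH2 was -0.25. The near-identical partial copy listed as NOTCH2NL stood at 45.3 in the resistant and 89.6 in the parental library (log2 ratio -0.97), and reads of the shared part may have been divided between these genes, so the level of NOTCH2 is uncertain to that extent.

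NOTCH1 (ENSG00000148400, chromosome 9), the receptor with the lowest level per length of the 3 in the parental library, had 3943 reads and a level of 28.7 in the resistant library, against 3174 reads and a level of 22.2 in the parental library. The ratio was 1.29 (counting interval 1.23 to 1.35) and the log2 ratio 0.35. The 40 nearest expressed genes of NOTCH1 had a median log2 ratio of 0.21, and with that median subtracted its log2 ratio was 0.15. Summed per kilobase of exon, the 3 receptors came to 16.5 normalised reads in the resistant library and 43.6 in the parental library. NOTCH3 made up 2.69% of that sum in the resistant library, against 33.8% in the parental library. NOTCH2 made up 78.7% in the resistant and 60.7% in the parental library, and NOTCH1 18.6% and 5.47%. With the length of the longest coding transcript in place of all exons, the share of NOTCH3 was 2.03% in the resistant and 27.1% in the parental library. NOTCH4, the remaining human receptor, had 17 reads in the resistant and 12 in the parental library and was not expressed by the minimum used here.

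**Figure D2:**
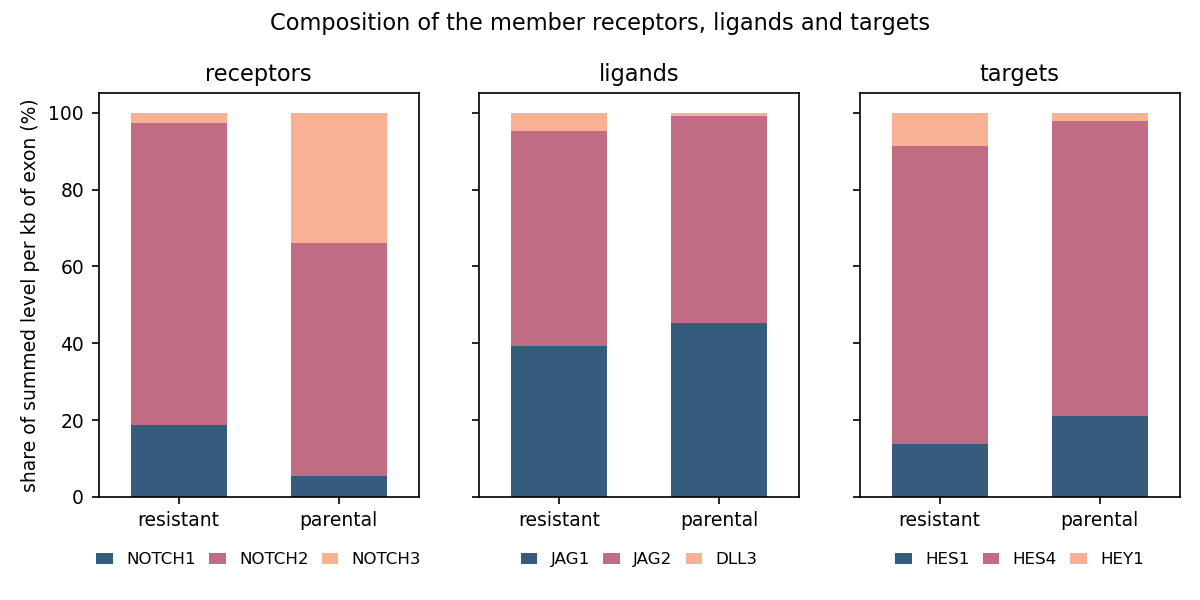
Share (%) of each gene in the summed level per kilobase of exon of the 3 receptors, the 3 ligands and the 3 targets, with the resistant library on the left and the parental library on the right of each panel. NOTCH3 makes up 2.69% of the receptor sum in the resistant and 33.8% in the parental library, and JAG1 with JAG2 fills most of the ligand sum in both.

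The ligands among the members had higher levels in the resistant library, by less than 2-fold for both Jagged genes and by more for DLL3. JAG2 (ENSG00000184916, chromosome 14), which encodes a canonical activating ligand, had 9864 reads and a level of 71.7 in the resistant library, against 6715 reads and a level of 47.0 in the parental library. Its ratio was 1.53 (counting interval 1.48 to 1.57) and its log2 ratio 0.60. A transcript on the same strand in the annotation covers 8.04% of the exon bases of JAG2, and reads there cannot be assigned to either.

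JAG1 (ENSG00000101384, chromosome 20), the ligand mutated in Alagille syndrome, had 7054 reads and a level of 51.3 in the resistant library, against 5732 reads and a level of 40.1 in the parental library. Its ratio was 1.28 (counting interval 1.23 to 1.32) and its log2 ratio 0.35. JAG1 and JAG2 thus both differed between the libraries by less than 2-fold, with the larger ratio for JAG2 and counting intervals that did not overlap. The nearest expressed genes of JAG2 had a median log2 ratio of 0.34, and those of JAG1 a median of 0.06. Whether cultures of the same line differ by as much is not known from 1 library each.

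DLL3 (ENSG00000090932, chromosome 19), a divergent ligand that acts mainly inside the cell as an inhibitor of Notch and marks neuroendocrine lung tumours, had 339 reads and a level of 2.46 in the resistant library, against 48 reads and a level of 0.336 in the parental library. The ratio of 7.33 had a counting interval of 5.41 to 10.1, the widest among the members relative to its size. The log2 ratio was 1.37, which the added unit makes small: with 0.1 added it was 2.56, and with 5 added it was 0.48. The neuroendocrine regulators NEUROD1 and INSM1 had 0 reads in both libraries. Per kilobase of exon, DLL3 made up 4.67% of the sum of the 3 ligands in the resistant library and 0.934% in the parental library, JAG2 56.0% and 53.9%, and JAG1 39.3% and 45.2%.

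Of 12 receptor and ligand genes, 8 were expressed, of which 1 (DLL3) passed the 2-fold limit upward and 3 downward, with a median log2 ratio of 0.12, and with a pseudocount of 5 or a minimum level of 5 the upward count was 0. The other canonical ligand genes had few reads. DLL4 had 15 reads in the resistant and 67 in the parental library, DLL1 had 6 and 18, while of the non-canonical ligand genes DLK1 had 0 in both and DLK2 had 222 and 258 (levels of 1.61 and 1.81). DNER, a neuronal protein described as a Notch ligand, had no reads in the resistant library and 216 in the parental library, at least 69.4-fold lower against a floor of 3 reads.

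LFNG (ENSG00000106003, chromosome 7) encodes lunatic fringe, a glycosyltransferase of the Golgi that extends O-fucose on Notch and favours its activation by Delta-like over Jagged ligands. It had 12544 reads and a level of 91.2 in the resistant library, against 9342 reads and a level of 65.4 in the parental library. Its ratio was 1.39 (counting interval 1.36 to 1.43) and its log2 ratio 0.47, while its 40 nearest expressed genes had a median of -0.35. Of the 8 enzymes that glycosylate Notch, all of them expressed, 1 passed the 2-fold limit upward, that is with the higher level in the resistant library, and 0 passed it downward, with a median log2 ratio of 0.17. The 1 past the limit was POGLUT1, which adds O-glucose to the receptor, at 14.3 in the resistant and 6.61 in the parental library (log2 ratio 1.01), and with a pseudocount of 5 it did not pass.

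The target genes among the members all had higher levels in the resistant library, by widely different amounts. HEY1 (ENSG00000164683, chromosome 8), a repressor of the hairy and enhancer-of-split-related family with roles in vessels and heart, had 1572 reads and a level of 11.4 in the resistant library, against 229 reads and a level of 1.60 in the parental library. The ratio was 7.13 (counting interval 6.20 to 8.22) and the log2 ratio 2.25, rank 376 of 13777 from the highest. The median log2 ratio of its 40 nearest expressed genes was 0.02, and HEY1 lay within their range of -3.03 to 2.93, in which 8 were higher by 2-fold or more.

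HES4 (ENSG00000188290, chromosome 1), a HES repressor that mice lack, had 5616 reads and a level of 40.8 in the resistant library, against 3224 reads and a level of 22.6 in the parental library. Its ratio of 1.81 (counting interval 1.73 to 1.89) and log2 ratio of 0.83 stayed under the 2-fold limit, and its neighbours near the chromosome end, 26 expressed genes, had a median of 0.38. HES1 (ENSG00000114315, chromosome 3), the most widely used readout of Notch activity, had 1505 reads and a level of 10.9 in the resistant library, against 1351 reads and a level of 9.46 in the parental library. Its ratio of 1.16 (counting interval 1.07 to 1.25) and log2 ratio of 0.19 made it the member with the smallest difference.

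**Figure D3:**
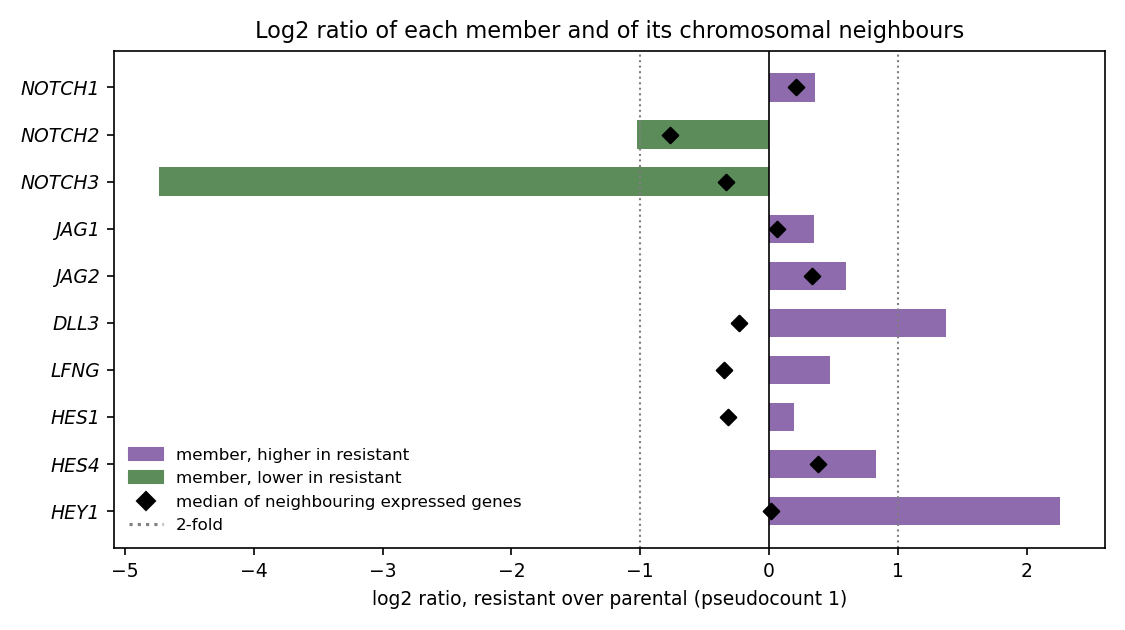
Log2 ratio of resistant over parental for each member (bars, purple where higher and green where lower in the resistant library) and median log2 ratio of its nearest expressed genes on the chromosome (black diamonds), with 2-fold marked by dotted lines. NOTCH3, DLL3 and HEY1 lie far from the median of their neighbours, at -4.73 against -0.34, 1.37 against -0.23 and 2.25 against 0.02, while NOTCH2 at -1.02 lies near -0.77.

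Over the whole HES and HEY family of 9 genes, 6 were expressed, of which 2 passed the 2-fold limit upward and 1 downward, with a median log2 ratio of 0.53. With a pseudocount of 5, and likewise with a minimum level of 5, 1 passed upward and 0 downward, and the median was 0.36 with that pseudocount and 0.24 without a minimum level. Besides HEY1, HEYL was higher, with 315 reads in the resistant and 2 in the parental library. That ratio of 164 has a counting interval of 44.9 to 1356, since it rests on 2 reads, and the log2 ratio with 1 unit added was 1.70. HES2 was lower, at 27 reads in the resistant and 282 in the parental library (log2 ratio -1.31). HES6 had a log2 ratio of 0.24, and HES5 had 0 reads in both libraries.

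Ordered by level per kilobase of exon, the members in the resistant library ran from HES4 (39.2), LFNG (28.4), NOTCH2 (13.0), JAG2 (12.3), JAG1 (8.63) and HES1 (6.93) to HEY1 (4.43), NOTCH1 (3.08), DLL3 (1.02) and NOTCH3 (0.444). In the parental library the order per kilobase was NOTCH2 (26.5), HES4 (21.7), LFNG (20.4), NOTCH3 (14.8), JAG2 (8.05), JAG1 (6.75), HES1 (5.99), NOTCH1 (2.39), HEY1 (0.622) and DLL3 (0.140). NOTCH3 was thus in place 4 in the parental library and in place 10 in the resistant library. Which neighbours in these orders differ by more than the spread between cultures cannot be said from 1 library each. With the longest coding transcript as the length, LFNG and HES4 changed places in the parental library and the order in the resistant library was the same.

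**Figure D4:**
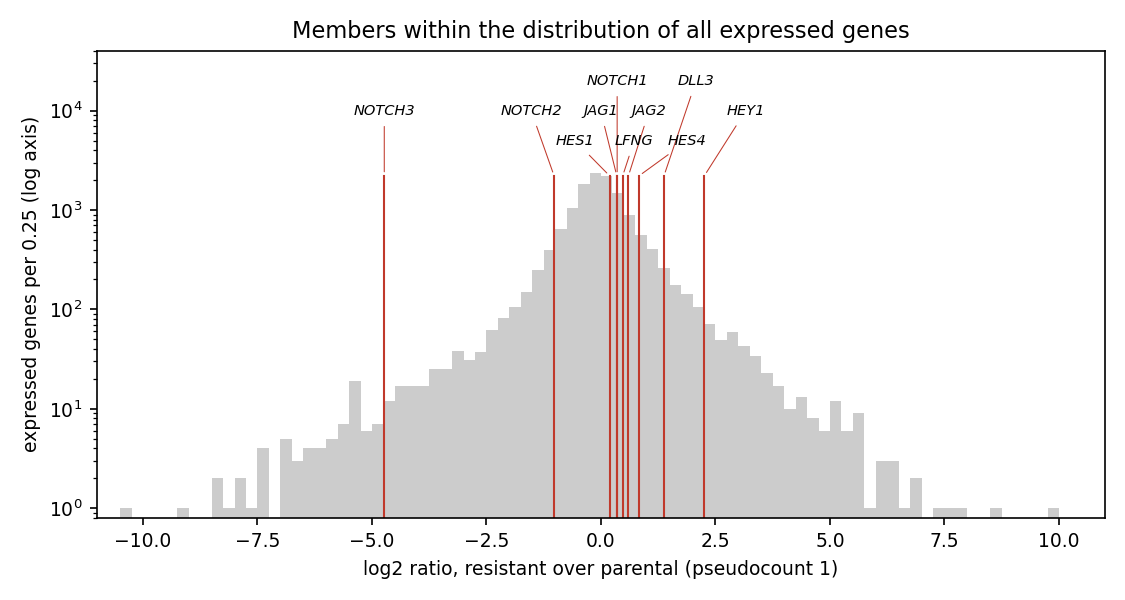
Number of expressed genes per interval of 0.25 in the log2 ratio of resistant over parental (grey, log axis) with the 10 members as red lines. NOTCH3 at -4.73 lies in the lower tail and HEY1 at 2.25 in the upper part. The 6 members from HES1 at 0.19 to HES4 at 0.83 lie within the bulk, with 64.7% to 86.8% of the expressed genes below them.

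The machinery that cuts the receptor and carries the signal had lower levels in most of its genes, by small amounts. Of 9 genes for processing proteases, 8 were expressed, 0 passed the 2-fold limit in either direction and 7 had lower levels in the resistant library. Their log2 ratios ran from -0.51 to 0.27 with a median of -0.44, against -0.03 over all expressed genes. Since the median over all expressed genes lies below 0, a majority of those genes also had lower levels. Their exact share was not computed, so the number of lower genes in a list has no background value beside it. ADAM10, which makes the first ligand-dependent cut, stood at 133 in the resistant and 184 in the parental library (-0.46).

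Of 18 genes for the nuclear complex and its co-repressors, all expressed, 0 passed the 2-fold limit upward and 1 downward. In this list 15 had lower levels in the resistant library, again without a computed share of all expressed genes beside it. The median log2 ratio was -0.42, against -0.03 over all expressed genes. RBPJ, the DNA-binding partner, stood at 231 in the resistant and 344 in the parental library (-0.57). The co-activator MAML1 stood at 39.2 and 40.1, a ratio whose counting interval of 0.941 to 1.01 includes 1. Its relative MAML2 was lower, at 6.92 in the resistant and 26.6 in the parental library (-1.80), although a non-coding gene on the opposite strand covers 7.72% of its exon bases and the strand setting is not given.

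Genes for ubiquitination and trafficking of ligands and receptors held the largest log2 ratios of the pathway lists outside the members. Of 16 expressed genes among 17, 1 passed the 2-fold limit upward and 3 downward, with a median log2 ratio of -0.19. NEURL1, listed under its older symbol NEURL and encoding a ubiquitin ligase related to the fly gene that promotes ligand endocytosis, stood at 38.0 in the resistant and 1.83 in the parental library, a ratio of 20.8 (counting interval 18.4 to 23.6) and a log2 ratio of 3.79. The genes past the limit downward were 3 Deltex genes, which belong to a family of ubiquitin ligases named for a Notch-binding protein: DTX2 stood at 66.9 in the resistant and 977 in the parental library (-3.85), DTX3 at 5.97 and 17.4 (-1.40), and DTX4 had a log2 ratio of -1.05. Of the remaining Deltex genes DTX3L stood at 122 and 128 (-0.07), and DTX1 had 0 reads in the resistant and 112 in the parental library, below the minimum level. DTX2 has a transcribed pseudogene copy on the same chromosome, so its level is uncertain where reads are shared. The inhibitor NUMB, which directs Notch to endocytosis, stood at 740 and 682 (0.12).

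Further genes that Notch is known to activate in some tissues went both ways. Of 10 expressed genes among 12, a list that includes NOTCH3 and HEYL, 3 passed the 2-fold limit upward and 2 downward, with a median log2 ratio of 0.05, and with a pseudocount of 5 the upward count was 1. SNAI2, a repressor of epithelial genes, stood at 5.41 in the resistant and 0.854 in the parental library (1.79), and MYC at 1593 and 532 (1.58). ERBB2 was lower, at 202 in the resistant and 529 in the parental library (-1.38). NRARP, a feedback inhibitor induced by Notch, stood at 6.06 and 5.17 (0.20). The 6 neural genes that HES1 is known to repress were not expressed in either library, and 5 of them had 0 reads in both. Over the 62 expressed pathway genes other than the members, 5 passed the 2-fold limit upward and 7 downward, and the median log2 ratio was -0.24. Over all expressed genes 10.6% passed upward and 9.68% downward, and the median was -0.03. The same shares are the background for the 2-fold counts of each pathway list above, and no list was tested against them.

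**Figure D5:**
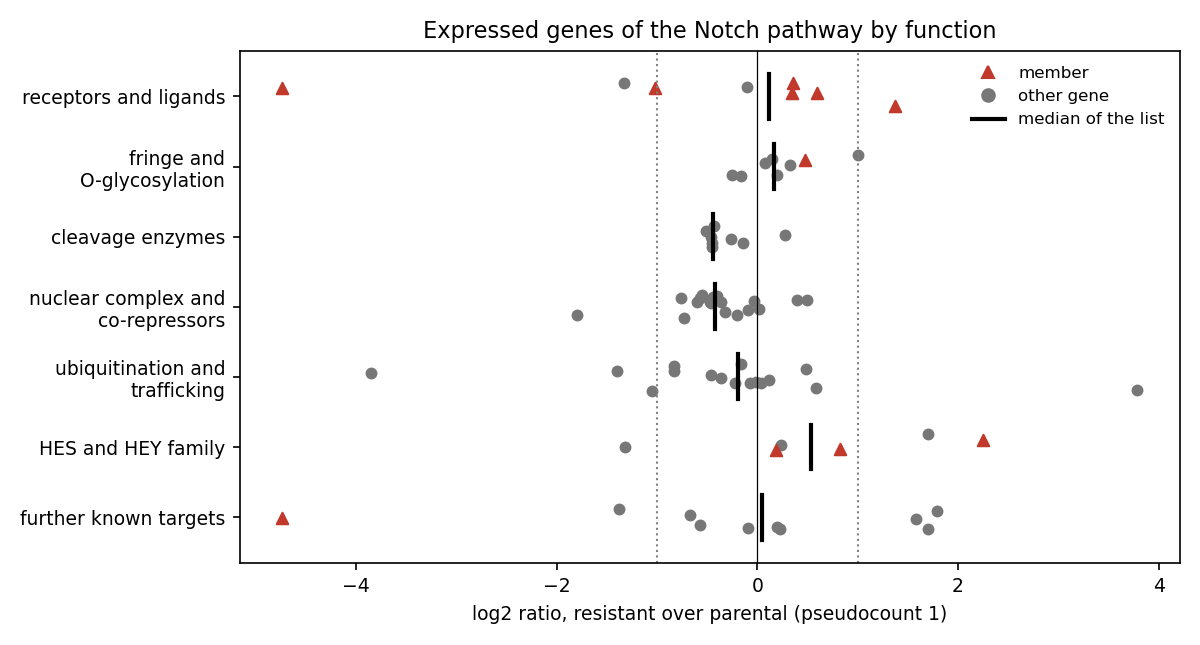
Log2 ratio of resistant over parental for each expressed gene of 7 Notch pathway lists (members as red triangles, other genes as grey circles, vertical position within a row is arbitrary), with the list median as a black bar and 2-fold as dotted lines. The cleavage enzymes lie between -0.51 and 0.27, while the ubiquitination and trafficking genes spread from -3.85 for DTX2 to 3.79 for NEURL1.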

How the data were processed

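Polyadenylated RNA of 1 resistant and 1 parental culture was sequenced, per the labels' protocols. Per the submitters' processing notes TopHat was used. Version, build, counting program and strand setting are not given in these sources. The authors deposited 1 log2 value per gene and library in a table named for RPKM. Back-transformed, 100% of the values of 1 to 100000 reads in each library were whole multiples of 1 step within 0.1 read, so the deposited log2 values are reads per gene times 1 factor per library, not divided by length. The comparison laid out for normalised levels was kept, and read numbers served only for counting intervals and floors. The 3573 resistant and 3504 parental genes at the lowest value (0.9 reads) were taken as without reads. The parental column, which carries the ending Prim, was assigned because the other column names ZDR3.

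Log2 ratios used a pseudocount of 1, a gene reaching a level of 1 in either library counted as expressed, and a difference of at least 2-fold was called. Intervals and floors of 3 reads leave out every error but that of counting, and without molecular identifiers a read need not be an independent molecule. Exon lengths and gene order were looked up by Ensembl identifier in GENCODE release 29, possibly another annotation than the one the authors used. It matched 96.1% of the genes. Neighbours were the 20 expressed genes on each side. Older symbols were matched through the identifier. The members and lists were chosen with earlier results of these data known. The genes named were the 10 members, EGFR and JUN, list genes at least 2-fold different (at most 4 per list), RBPJ, MAML1, ADAM10 and NUMB, the marker genes, and the 3 genes nearest in level to the most changed members. HES5, HES6, NRARP, NOTCH4, NOTCH2NL, DLL1, DLL4, DLK1, DLK2, DTX1 and DTX3L were added after their values were seen. Some genes that this rule takes are left out of the text. Python 3.11.15 with NumPy 2.4.6, pandas 2.3.3, SciPy 1.17.1 and Matplotlib 3.10.9 was used. Other pseudocounts, minimum levels and scalings were tried.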

Additional observations from a re-analysis of the deposited data

How the results depend on the processing

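Each of 69 recomputed log2 ratios of members, over 7 alternatives, had the same sign as reported, and 66 stayed on the same side of the 2-fold limit. The exceptions were DLL3 with a pseudocount of 5 (0.48), and NOTCH2 with scaling by total gene reads (-0.998) and with the median of its neighbours subtracted (-0.25). The settings of the minimum level only choose which genes are kept, so agreement of the ratios under them was fixed in advance. Scaling by total gene reads or by the median ratio multiplies each resistant level by 1 factor, a log2 shift of 0.0245 or 0.0228. These settings therefore test the member ratios little. With a pseudocount of 5, 1 member was higher by 2-fold or more. That number was also 1 under a minimum level of 5, which drops DLL3 by construction. A minimum level of 5 gave the members a median of 0.35. The count at least 2-fold lower was 1 with scaling by total gene reads and 1 with neighbours subtracted. With a pseudocount of 5, which shrinks ratios of low genes by construction, 901 expressed genes passed 2-fold upward and 865 downward, against 1463 and 1333 as reported. Without a minimum level the median log2 ratio was -0.051 for the receptors and ligands, against 0.12, and -0.046 for the further known targets, against 0.05. The cause was not tested beyond the genes that each setting adds or drops. Scaling by the median ratio moved no count of members. The length of the longest coding transcript, an alternative chosen after seeing the data, gave NOTCH3 2.03% of the receptor sum in the resistant and 27.1% in the parental library. No paired analysis was possible because each group holds 1 library, and for the same reason no library could be left out. Depth limits DLL3 in the parental library (48 reads) and HEYL (2 reads).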

Other observations

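By Euclidean distance between log2 levels in the 2 libraries (1 unit added, not divided by gene length), the expressed genes with read numbers closest to those of NOTCH3 were LIPH, CNTN1 and MB. LIPH, which encodes a phospholipase, stood at 3.53 in the resistant and 128 in the parental library, a distance of 0.0985. CNTN1, a neuronal adhesion protein gene, stood at 4.37 and 119 (distance 0.178), and MB, the myoglobin gene, at 4.07 and 110 (distance 0.220).

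The genes closest to HEY1 by the same measure were FAM125B, RGS5 and ICA1L. FAM125B stood at 12.2 in the resistant and 1.57 in the parental library (distance 0.0905), RGS5, a regulator of G protein signalling, at 11.5 and 1.32 (distance 0.165), and ICA1L at 12.1 and 1.88 (distance 0.168). With 2 libraries and no correction for length, such closeness says only that these genes had similar read numbers in each.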
